A study of Mus musculus with 6 samples.

Results

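Potassium channel genes were followed through the cell classes of the lumbar spinal cord in a mouse model of motor neuron disease. Members were all genes whose symbol begins with Kcn, then letters and a digit, leaving out symbols that end in os or -ps. This gave 96 of the 32285 genes counted, and each of the 96 had at least 1 molecule in the nuclei analysed. Grouped by the letter after Kcn, they ranged from 15 Kcnj and 14 Kcnk genes to the single genes Kcnf1 and Kcnu1. Of the 96, 3 are noncoding RNAs that the naming rule takes in (Kcnq1ot1, Kcnmb4os1 and Kcnmb4os2). Nuclei came from frozen lumbar cord of C57BL/6 mice aged 110 days that all carry SOD1G93A, a mutant human superoxide dismutase that causes loss of motor neurons. The groups were SOD1G93A/PHD1-/- (3 libraries) and SOD1G93A/PHD1+/+ (3 libraries), called PHD1-/- and PHD1+/+ here. PHD1 is an oxygen-sensing prolyl hydroxylase made from Egln2. There was no group without SOD1G93A among the samples, so no level given here is set against healthy cord. The mice were 3 littermate pairs, and the labels do not say whether a replicate number marks a pair or which part of Egln2 is deleted.

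Potassium channels let potassium leave or enter the cell and thereby set its resting voltage and shape its impulses. Voltage-gated channels (Kcna to Kcnd, Kcnh, Kcnq) open on depolarisation, and the silent subunits Kcnf, Kcng, Kcns and Kcnv join Kcnb subunits and alter their gating. Inward rectifiers (Kcnj) hold the resting voltage and, in astrocytes, take up potassium released by active neurons. Leak channels with paired pore domains (Kcnk) carry background current, Kcnma and Kcnn channels open with calcium, and Kcnt channels open with sodium. Kcnab, Kcne, Kcnip and Kcnmb genes make auxiliary subunits with no pore of their own.

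The pore of these channels is lined by the potassium channel signature, a short stretch of amino acids that ends in glycine, tyrosine or phenylalanine, glycine. The longest annotated coding sequence of each gene (GENCODE M21, build GRCm38) was searched for codons of this signature. It was found in 75 of the 93 coding members, against 114 of 21491 other protein-coding genes (0.530%). No Kcnab, Kcne, Kcnip or Kcnmb sequence held it, and 11 of the 14 Kcnk genes held it at least 2 times. Stretches of 39 bases around it are shown for 4 members that are highest in a given cell class below, to show genes with like pores and different places of expression. Each is written 5′ to 3′ on the coding strand, with the 15 signature bases in capitals.
Kcnj8 (mural cells; chromosome 6): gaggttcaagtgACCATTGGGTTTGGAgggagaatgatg
Kcnk6 (microglia; chromosome 7): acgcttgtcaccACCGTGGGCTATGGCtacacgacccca
Kcna6 (oligodendrocytes; chromosome 6): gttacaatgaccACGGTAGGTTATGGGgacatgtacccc
Kcnh8 (oligodendrocyte precursors; chromosome 17): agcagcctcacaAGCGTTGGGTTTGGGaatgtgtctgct
Kcnj8 and Kcnh8 carried a codon for phenylalanine within the signature, and Kcnk6 and Kcna6 carried one for tyrosine.

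After filtering, PHD1-/- libraries held 5996 to 7216 nuclei and PHD1+/+ libraries 5208 to 9153, with 14074710 to 32508245 unique molecular identifiers (UMIs, each a counted RNA molecule) per library. Replicate 1 of both groups stood apart. Its nuclei had median counts of 1365 UMIs (PHD1-/-) and 1363 UMIs (PHD1+/+), while the remaining libraries ranged over 2290.5 to 2902 UMIs. The doublet caller marked 1 nucleus and 0 nuclei there, against 104 to 259 in each other library. It cannot be relied on there, and doublets may remain in the replicate 1 libraries. These libraries shared 86 cell barcodes, while no other pair shared more than 14. Their barcode lists open with a different sequence from those of the other 4 libraries, and its part in the shared barcodes was not tested. Egln2 was at 9.66, 9.04 and 10.1 CPM (UMIs per 1000000 of the library, or of the class within it) in PHD1-/- and 29.6, 18.8 and 16.4 CPM in PHD1+/+, and the groups did not overlap. Nuclei were clustered without the 96 members, and class names stand for clusters that resemble a type by its markers. A total of 12 classes had at least 10 nuclei in every library and were ranked. Nuclei in no class made up 21.7%, 3.31% and 5.67% of PHD1-/- replicates 1, 2 and 3 and 29.3%, 4.49% and 6.03% of those of PHD1+/+. Levels between classes are described, not tested, because the classes come from the same nuclei.

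Summed over all 96, potassium channel genes reached 17992 ± 3965 CPM in cerebrospinal-fluid-contacting neurons, 16403 ± 1539.7 in inhibitory and 15635 ± 1522 in excitatory neurons (SD, n = 6 libraries). Oligodendrocyte precursors followed at 10617 ± 1249 CPM and ependymal cells at 9485 ± 1027, and microglia were lowest at 2082 ± 145. A single gene, Kcnip4 (an auxiliary subunit of Kv4 channels), made up much of these sums, with 8127 CPM in cerebrospinal-fluid-contacting, 5347 in inhibitory and 5516 in excitatory neurons, 643 in precursors and 5143 in ependymal cells. Its precursor level varied widely (SD 587, from 74.8 to 1414 CPM). Replicate 1 was highest in each group there, as it was for neuron markers in precursors (3958 CPM in PHD1-/- and 4737 CPM in PHD1+/+), whose part was not tested. Without Kcnip4, a choice made after seeing the data, the sums were 9864 ± 2233 CPM in cerebrospinal-fluid-contacting, 11056 ± 888 in inhibitory and 10118 ± 1116 in excitatory neurons, 9974 ± 1749.8 in precursors and 4342 ± 541 in ependymal cells. Precursors then differed from each neuron class by less than the spread between precursor libraries, and ependymal cells lay below them all. Of the 96 members, 58 had at least 60 UMIs in their highest class, and 34 of these 58 (58.6%) had their highest mean in a neuron class, against 20.7% of the 10774 genes that met the same minimum. In 33 of the 58 the same class was highest in at least 5 of the 6 libraries (a steady highest class), 18 times a neuron class and 15 times another class. The neuron share was 31.0% of members and 6.08% of all genes. The minimum favours classes with many UMIs, since 60 UMIs were 1.32 CPM in excitatory neurons and 172 CPM in mural cells, so these counts are descriptions of the genes that passed. With at least 200 UMIs over all classes in its place, 18 members had a neuron class and 19 another class as their steady highest. The median ratio of the highest class to the next was 1.42 for members and 1.33 for all genes, so the highest class of a typical member led by little.

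**Figure D1:**
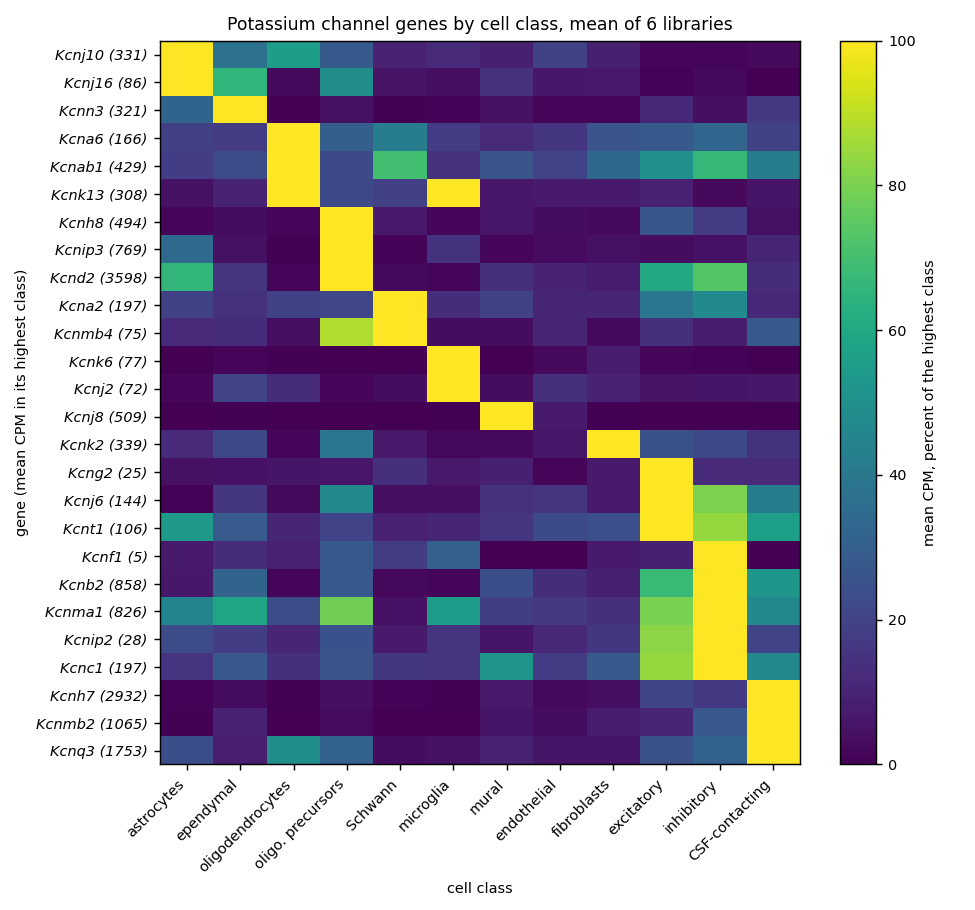
Mean CPM over 6 libraries of 26 members named for a class (rows), as a percentage of each gene's highest class (color), in 12 cell classes (columns). Kcnj8 in mural cells and Kcnk6 in microglia stand nearly alone in their rows, while Kcnk13 is as bright in oligodendrocytes as in microglia.

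In astrocytes and ependymal cells, inward rectifiers and a calcium-activated channel stood out. Kcnj10 (Kir4.1, the main potassium uptake channel of glia) was at 232, 361 and 358 CPM in astrocytes of PHD1-/- replicates 1, 2 and 3 and at 207, 354 and 476 CPM in those of PHD1+/+, and was highest in astrocytes in 6 of 6 libraries. Oligodendrocytes were next at 184 ± 35.9 CPM, while excitatory neurons had 5.48 and inhibitory neurons 5.03 CPM. Kcnj16 (Kir5.1, which pairs with Kir4.1) was at 48.0, 105 and 112 CPM in PHD1-/- astrocytes and at 55.7, 91.6 and 104 CPM in PHD1+/+ astrocytes. Its next class was ependymal cells at 56.7 ± 31.0 CPM, and oligodendrocytes had 2.25 CPM, so the gene for the partner subunit was low where Kcnj10 was second highest. Kcnj10 lies on the plus strand of chromosome 1 (172341210 to 172374085, GRCm38), 11.9 kb from Kcnj9, whose mean was highest in excitatory neurons, though in 3 of 6 libraries only. Kcnj16 lies on the plus strand of chromosome 11 (110968033 to 111027968), 38.2 kb from Kcnj2, which was highest in microglia in 6 of 6 libraries. Kcnn3 (SK3, a small-conductance calcium-activated channel) was at 253, 414 and 329 CPM in PHD1-/- ependymal cells and 167, 250.0 and 513 CPM in PHD1+/+ ependymal cells, 3.10 times its mean in astrocytes.

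Astrocytes were not uniform in these genes. The cluster of 400 nuclei highest in Gfap, an intermediate filament of reactive and fibrous astrocytes, was set beside the cluster of 1079 nuclei highest in Slc7a10, and the genes given were chosen after their values were seen. The Gfap cluster had 16 to 135 nuclei per library and 35116 UMIs in its smallest library, so low levels there rest on few UMIs. Of 30 members with at least 60 UMIs, the Gfap cluster was higher in 6 of 6 libraries for 4 and lower for 10, against 9.02% and 8.71% of 8383 genes. Kcnj10 was at 165 ± 45.7 CPM in the Gfap cluster and 380.5 ± 99.1 CPM in the Slc7a10 cluster (SD, n = 6). Kcnj16 was at 35.3 ± 31.1 CPM in the Gfap cluster and 102 ± 26.5 CPM in the Slc7a10 cluster. Both subunits of the uptake channel were thus lower in the Gfap cluster. Kcnip3, a calcium-binding subunit of Kv4 channels, was at 73.96 ± 30.5 CPM in the Gfap cluster and 330.4 ± 29.2 CPM in the Slc7a10 cluster. Kcnd2 (Kv4.2, an A-type channel) was at 774 ± 173 CPM in the Gfap cluster and 2900.3 ± 705 CPM in the Slc7a10 cluster. Kcnj3 (Kir3.1, a G-protein-gated rectifier) went the other way, with 339.7 ± 126 CPM in the Gfap cluster and 40.6 ± 13.6 CPM in the Slc7a10 cluster. The 10 neuron markers summed to 890.0 ± 407 CPM in the Gfap cluster and 995 ± 573 CPM in the Slc7a10 cluster, and their part in these differences was not tested.

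Within the oligodendrocyte lineage, precursors were the highest of the ranked classes for Kcnh8 (an ELK-type voltage-gated channel), Kcnip3 and Kcnd2. Kcnh8 was at 423, 578 and 561 CPM in PHD1-/- precursors and 339, 555 and 509 CPM in PHD1+/+ precursors, 3.74 times its mean in excitatory neurons, and at 7.89 CPM in oligodendrocytes. Kcnip3 was at 769 ± 99.95 CPM in precursors, 2.93 times its astrocyte mean. Kcnd2 was at 3598 ± 940.2 CPM in precursors, 1.36 times its mean in inhibitory neurons. A Kv4 channel gene and the gene of a Kv4 subunit therefore both had their highest class mean in precursors. These are means over whole classes, and smaller neuron clusters could lie higher. Of 36 excitatory and inhibitory clusters, the highest had 902 CPM for Kcnh8 and 6658 CPM for Kcnd2, both excitatory and above the precursor mean. The highest cluster for Kcnip3 had 159 CPM, below its precursor mean. Each cluster was picked as the highest, so these values are descriptions. Oligodendrocytes were highest for Kcna6 (Kv1.6), Kcnab1 (a Kv1 auxiliary subunit) and Kcnk13 (THIK-1, a leak channel known from microglia). Kcna6 was at 117, 182 and 182 CPM in PHD1-/- oligodendrocytes and 121, 226 and 169.6 CPM in PHD1+/+ oligodendrocytes, 2.37 times its mean in Schwann cells. Kcnab1 was at 429 ± 26.3 CPM in oligodendrocytes, 1.43 times its mean in Schwann cells. Kcnk13 was at 308 ± 43.3 CPM in oligodendrocytes and 307 ± 41.8 CPM in microglia, which differed by less than the spread between libraries.

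Newly formed oligodendrocytes, 318 of the 13750 oligodendrocyte nuclei and 27 to 88 per library, were set beside mature ones, and the genes given were chosen after their values were seen. Of 52 members with at least 60 UMIs, 8 were higher in newly formed cells in 6 of 6 libraries and 9 were lower, against 9.15% and 20.1% of 12975 genes, so the share that was lower did not exceed that of all genes. Kcnq5, a voltage-gated channel of the M-current family, was at 453 ± 72.2 CPM in newly formed and 9.51 ± 3.51 CPM in mature cells, a ratio of 47.6. Kcnj12 (Kir2.2) was at 48.9 ± 17.6 CPM in newly formed and 1.25 ± 0.634 CPM in mature cells. Kcnj3 was at 254 ± 46.4 CPM in newly formed and 15.05 ± 5.198 CPM in mature cells. Kcnj3 was thus high in one cluster of astrocytes and one of oligodendrocytes. Kcnt2, a sodium-activated channel, was at 60.2 ± 30.9 CPM in newly formed and 5.22 ± 1.21 CPM in mature cells. These levels were partly shared with precursors, where Kcnq5 was at 491 ± 132, Kcnj3 at 199.9 ± 40.1 and Kcnt2 at 197 ± 56.03 CPM, while Kcnj12 was at 0.419 ± 1.03 CPM there. Kcnk13 was at 35.3 ± 18.8 CPM in newly formed and 323 ± 48.3 CPM in mature cells. Kcnab1 was at 58.2 ± 35.6 CPM in newly formed and 449 ± 29.6 CPM in mature cells, so these members of the oligodendrocyte set belonged to mature cells. Neuron markers summed to 979 ± 898 CPM in newly formed and 1149 ± 473 CPM in mature cells.

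**Figure D2:**
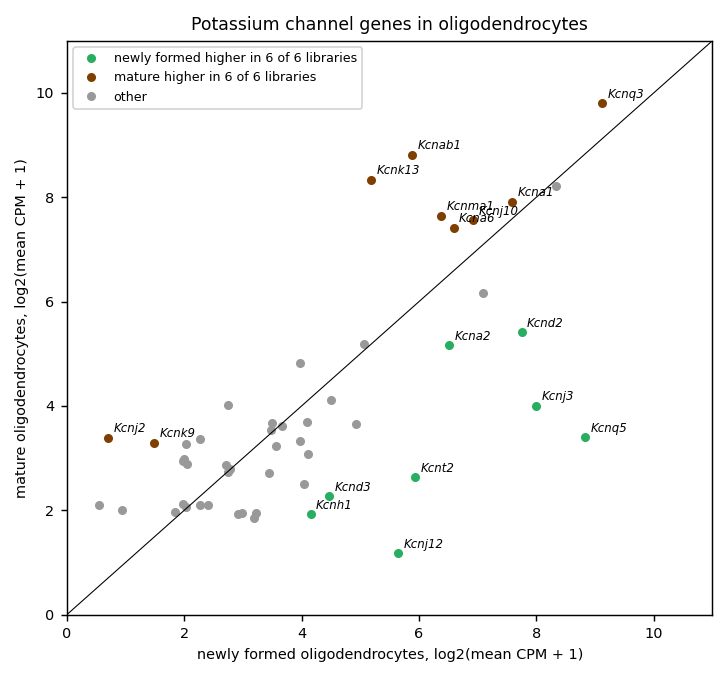
Mean level of 52 members in newly formed (x axis) and mature (y axis) oligodendrocytes, log2(mean CPM + 1), with a line where both are equal and color for the direction in 6 of 6 libraries. Kcnq5, Kcnj3, Kcnj12 and Kcnt2 lie on the newly formed side of the line, and Kcnk13 and Kcnab1 on the mature side.

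Microglia were the steady highest class of 2 members (3.45%, against 9.92% of all genes), and mural cells and fibroblasts of 1 each (1.72%, against 0.835% and 2.57% of all genes). Kcnk6 (TWIK-2, a leak channel) was at 39.3, 89.1 and 94.9 CPM in PHD1-/- microglia and 27.5, 93.7 and 119 CPM in PHD1+/+ microglia, 12.8 times its mean in fibroblasts. Kcnj2 (Kir2.1, a strong inward rectifier) was at 45.9, 89.1 and 69.1 CPM in PHD1-/- microglia and 39.3, 113 and 76.5 CPM in PHD1+/+ microglia, 4.89 times its mean in ependymal cells. For both genes replicate 1 was the lowest library of each group. Kcnj8 (Kir6.1, the pore of the vascular ATP-sensitive channel) was at 309, 647 and 408 CPM in PHD1-/- mural cells and 127, 902 and 660.5 CPM in PHD1+/+ mural cells, 13.9 times its mean in endothelial cells. This was the largest such ratio among the 33 members with a steady highest class, and Kcnj8 averaged 0.177 CPM in excitatory neurons. Kcnk2 (TREK-1, a stretch-gated leak channel) was highest in fibroblasts at 339 ± 89.1 CPM, 2.55 times its mean in precursors. Endothelial cells were the steady highest class of 0 members, against 4.91% of all genes.

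Schwann cells, the myelinating cells of the nerve roots, were highest for Kcna2 and Kcnmb4. Kcna2 (Kv1.2, an axonal channel beside the node of Ranvier) was at 71.1, 256 and 297 CPM in PHD1-/- Schwann cells and 61.9, 249 and 245 CPM in PHD1+/+ Schwann cells, 2.11 times its mean in inhibitory neurons. Kcnmb4, an auxiliary subunit of the large-conductance calcium-activated channel, was at 74.7 ± 44.996 CPM in Schwann cells and 65.7 ± 26.8 CPM in precursors, which differed by less than the spread. Kcna1, the partner of Kcna2 in axons, was at 379 ± 199 CPM in Schwann cells and 237 ± 45.04 CPM in oligodendrocytes, and Schwann cells led in 4 of 6 libraries. The highest means of Kcna1, Kcna2 and Kcna6 were thus all in a myelinating class.

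**Figure D3:**
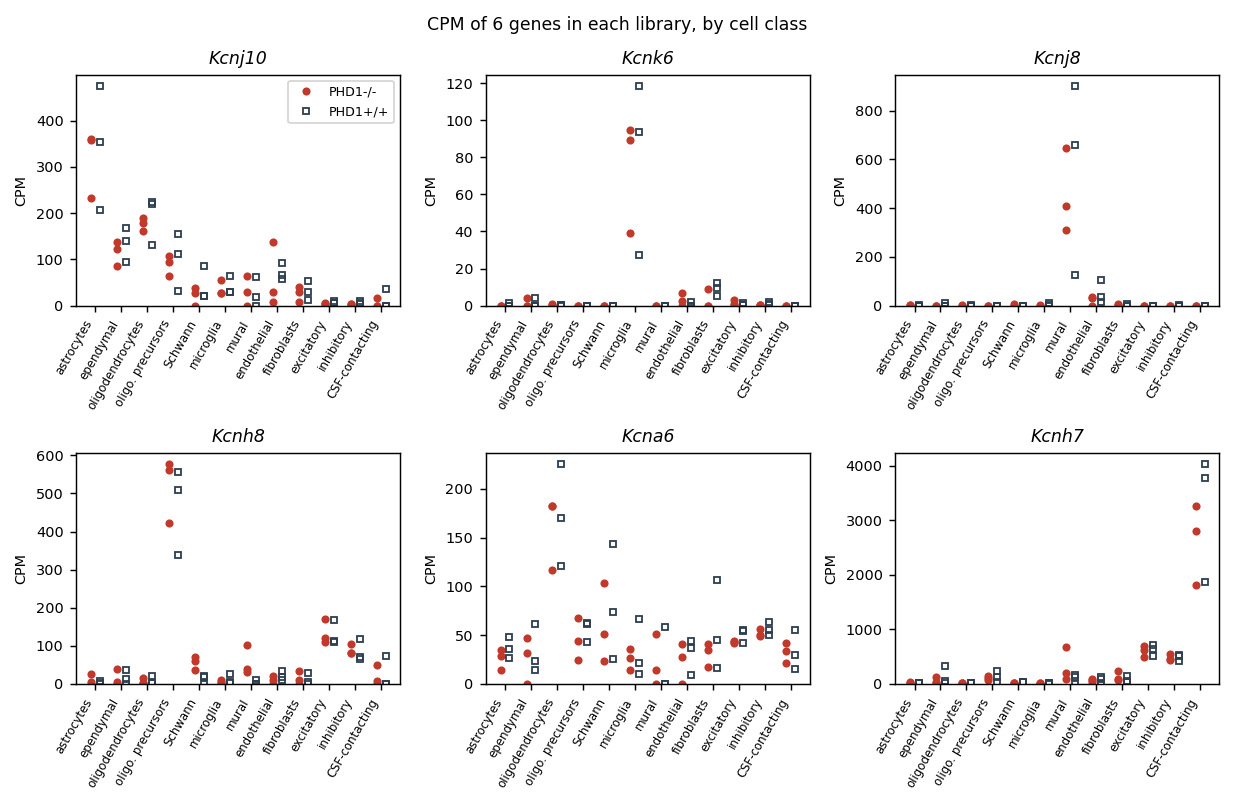
CPM of 6 members in each library (points) by cell class, with PHD1-/- as filled circles left of PHD1+/+ as open squares. Each gene is highest in its own class in both genotypes, and the lowest microglial points of Kcnk6 are 39.3 CPM in PHD1-/- and 27.5 CPM in PHD1+/+.

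Among neurons, cerebrospinal-fluid-contacting neurons, which reach into the central canal and numbered 20 to 26 nuclei per library, were the steady highest class of 7 members (12.1%, against 1.19% of all genes). Kcnh7 (an ERG-type channel) was at 1820.4, 2814 and 3266 CPM there in PHD1-/- and 1877, 3776 and 4037 CPM in PHD1+/+, 4.77 times its mean in excitatory neurons. Replicate 1 was again the lowest of each group. Kcnmb2, an inactivating subunit of the large-conductance channel, was 3.67 times as high there as in inhibitory neurons. Kcnq3, an M-current subunit, was 2.00 times as high there as in oligodendrocytes. Kcnip4 and Kcnh1 were 1.47 and 1.27 times as high there as in excitatory neurons.

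Excitatory and inhibitory neurons differed by little for many members. Of 74 members with enough UMIs, 15 (20.3%) were higher in excitatory neurons in 6 of 6 libraries and 25 (33.8%) in inhibitory neurons, against 14.04% and 15.8% of 16877 genes. Kcng2, a silent subunit, was at 27.1, 22.1 and 20.5 CPM in PHD1-/- excitatory neurons and 26.6, 27.9 and 24.7 CPM in PHD1+/+ excitatory neurons, against 2.98 ± 0.302 CPM in inhibitory neurons. Kcnf1, also a silent subunit, was at 0.439 ± 0.415 CPM in excitatory and 5.03 ± 1.49 CPM in inhibitory neurons. Silent subunits thus included the members with the clearest preference in either direction. Kcnb2 (Kv2.2), with which they can assemble, was at 576 ± 97.6 CPM in excitatory and 858 ± 27.4 CPM in inhibitory neurons. Kcnc1 (Kv3.1, a channel of fast-spiking neurons) was at 166 ± 12.2 CPM in excitatory and 197 ± 23.4 CPM in inhibitory neurons. Kcnc2 was likewise higher in inhibitory neurons in 6 of 6 libraries. Kcnma1, the pore of the large-conductance channel, and Kcnip2 were highest in inhibitory neurons, 1.25 and 1.21 times their excitatory means. Kcnj6 (Kir3.2) and Kcnt1 were highest in excitatory neurons, 1.24 and 1.19 times their inhibitory means.

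Cholinergic neurons, the class that would hold motor neurons, had 9 to 23 nuclei per library and were left out of the ranking, and the genes given were chosen after their values were seen. Of the 74 members, 7 were above both other classes in 6 of 6 libraries and 18 were below both, against 4.48% and 12.4% of 16959 genes. Kcnj14 (Kir2.4) was at 14.8 ± 10.8 CPM in cholinergic, 0.866 ± 0.458 CPM in excitatory and 1.20 ± 0.598 CPM in inhibitory neurons, from 22 cholinergic UMIs. Kcng4, a silent subunit, was at 30.9 ± 20.8 CPM in cholinergic, 2.13 ± 0.463 CPM in excitatory and 2.71 ± 1.42 CPM in inhibitory neurons. The leak channel gene Kcnk3 (TASK-1) was at 51.6 ± 18.9 CPM in cholinergic, 15.2 ± 2.51 CPM in excitatory and 14.4 ± 2.12 CPM in inhibitory neurons. Kcnk9 (TASK-3), Kcnmb4, Kcnh1 and Kcnab1 completed the 7, so both TASK genes were among them. Kcnc2 (Kv3.2) was at 77.5 ± 52.3 CPM in cholinergic, 565 ± 42.4 CPM in excitatory and 609.7 ± 27.9 CPM in inhibitory neurons. Kcnmb2 was at 10.4 ± 13.4 CPM in cholinergic, 114 ± 11.7 CPM in excitatory and 291 ± 29.1 CPM in inhibitory neurons. Chat averaged 222 CPM in the class and the motor neuron gene Mnx1 6.40 CPM, and motor neurons were not parted from other cholinergic neurons.

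**Figure D4:**
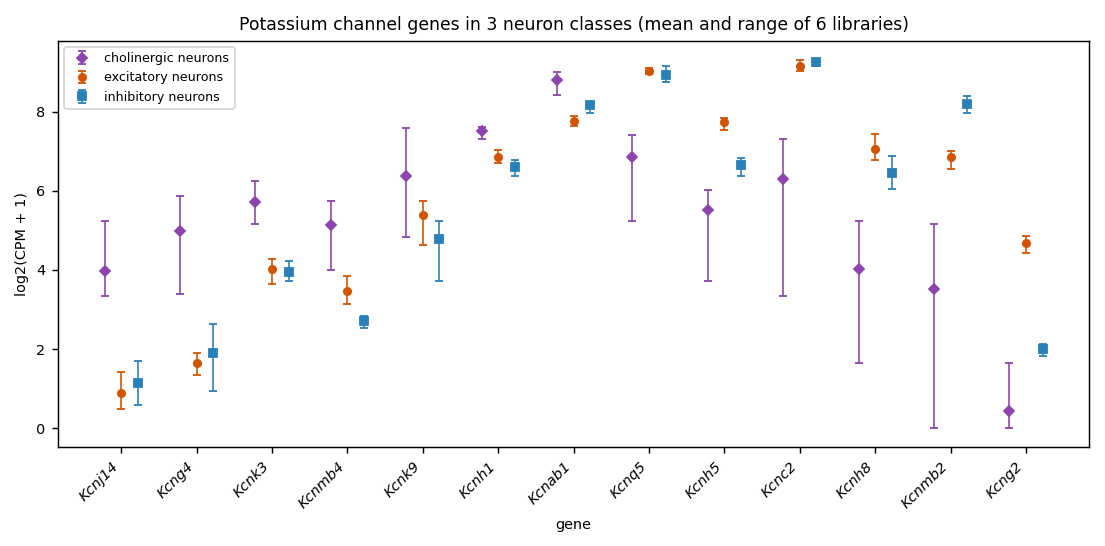
Levels of 13 members in cholinergic, excitatory and inhibitory neurons, log2(CPM + 1), with the mean (symbol) and the lowest to highest of 6 libraries (bar). The first 7 genes are highest in cholinergic neurons and the other 6 lowest there, with bars widest in the cholinergic class.

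Some members were concentrated in smaller neuron clusters. Over 36 excitatory and inhibitory clusters of at least 100 nuclei, the highest cluster exceeded the median cluster by a median of 3.48 times over 65 members and 1.95 times over 13989 genes, and the highest of so many small clusters is raised by its choice. Kcns3, a silent subunit, had 92.5 CPM in an inhibitory cluster led by Sapcd1 and Rbm20 and 3.13 CPM in the median cluster. Kcng2 had 169 CPM in an excitatory cluster led by C1qtnf7 and 7.89 CPM in the median cluster. The median cluster of both was thus far below the highest. Kcnmb2 had 1433 CPM in an inhibitory cluster led by Rxfp2 and 94.8 CPM in the median cluster. Kcnd3 (Kv4.3) had 896 CPM in an excitatory cluster led by Lmo3 and 105 CPM in the median cluster. These genes and clusters were picked for these values, so the ratios are descriptions.

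RNA of neuron markers was also counted in other classes. The summed level of 10 neuron markers, as a share of that in neurons, averaged 8.47% in astrocytes, 10.2% in oligodendrocytes, 12.01% in microglia, 12.3% in Schwann cells, 19.8% in endothelial cells, 20.6% in ependymal cells, 22.5% in precursors, 24.7% in fibroblasts and 36.4% in mural cells, with a highest library of 67.1% in mural cells. Nefl had the highest share of the markers in each of these classes, from 119% in precursors to 246% in microglia, so it was higher there than in neurons. The median marker had a larger share than the sum in precursors (39.2%), microglia (17.1%) and mural cells (46.3%). It had a smaller one in oligodendrocytes (9.57%), Schwann cells (8.51%) and endothelial cells (18.3%), and lay within 1 percentage point of the sum in the others. Members with at least 60 UMIs exceeded the summed marker share of their own neuron level in 6 of 6 libraries for 24 of 30 genes in astrocytes, 29 of 35 in precursors, 26 of 52 in oligodendrocytes and 13 of 21 in microglia. It held for 8 of 11 in Schwann cells, 9 of 19 in ependymal cells, 6 of 19 in fibroblasts, 3 of 9 in mural cells and 0 of 15 in endothelial cells. No share of all genes is given beside these counts, so they describe the members only. Whether members above or below the marker share are made in those classes was not tested.

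Between the genotypes, 0 members passed the threshold. The comparison of PHD1-/- with PHD1+/+ libraries by edgeR's quasi-likelihood test with Benjamini-Hochberg adjustment called 0 members and 0% of all genes in all nuclei (0 of 19303 genes) and in each of 7 classes (0 of 2964 to 15847 genes). The members tested numbered 82 in all nuclei, 26 in astrocytes, 51 in oligodendrocytes, 36 in precursors, 21 in microglia, 70 in excitatory neurons, 72 in inhibitory neurons and 12 in endothelial cells. At an unadjusted p under 0.05 there were 3 members in inhibitory neurons (0.457% of all genes) and 1 each in oligodendrocytes (0.694%), microglia (0.467%) and endothelial cells (0.81%). There were 0 in all nuclei (0.471%), astrocytes (0.603%), precursors (1.16%) and excitatory neurons (0.454%). These shares of all genes, at most 1.16%, were far below the fraction of 0.05 that this cut would pass if no gene differed. The test was conservative here and took differences between replicate numbers as spread between libraries, so 0 calls do not show equal levels. DESeq2 called 0 members as well, and its unadjusted p was under 0.05 for 3 members in inhibitory neurons, 1 each in all nuclei, oligodendrocytes, microglia and endothelial cells, and 0 elsewhere. With the replicate number as a block, 71 genes were called in inhibitory and 29 in excitatory neurons, with 0 members among them. For the 18 genes named for a class and tested in that class, log2 fold changes ran from -0.29 to 0.14 with standard errors (SE) of 0.13 to 0.49, and the groups overlapped for all 18. Kcnj10 in astrocytes, for example, had a log2 fold change of -0.13 (SE 0.30).

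Signs leaned to lower levels in PHD1-/- in some classes. In oligodendrocytes 11 members had a positive and 40 a negative log2 fold change, with a median of -0.25 over members and -0.01 over all genes. In microglia 2 were positive and 19 negative, with a median of -0.17 over members and -0.02 over all genes. In precursors 20 were positive and 16 negative, so the lean was not shared by all classes. Summed over all 96 members, microglia had 2036, 1989.8 and 1876 CPM in PHD1-/- and 2267, 2108 and 2216 CPM in PHD1+/+, and the groups did not overlap, the 1 of 12 classes where they did not. The difference of means was -229 CPM, -216 CPM without Kcnip4 (when mural cells did not overlap either, with PHD1-/- the higher), and -90.8 CPM among nuclei with at least 1000 UMIs. The 10 neuron markers summed to 1699, 1006 and 801 CPM in PHD1-/- microglia and 2233, 1015 and 1280.2 CPM in PHD1+/+ microglia, and 9 of 10 had the lower mean in PHD1-/-. In oligodendrocytes they summed to 1327, 839.9 and 702 CPM in PHD1-/- and 2023, 816 and 1130.1 CPM in PHD1+/+, and 10 of 10 had the lower mean in PHD1-/-. These sums overlapped between the groups, and their part in the results was not tested.

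**Figure D5:**
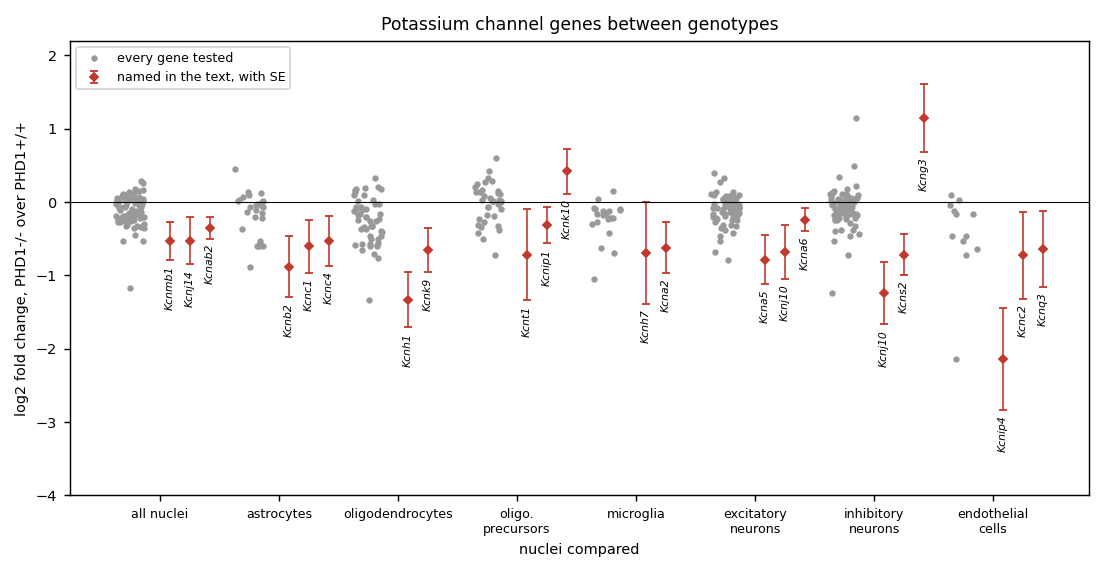
Log2 fold change, PHD1-/- over PHD1+/+, of every member tested (grey points) in all nuclei and 7 classes, and of those named in the text among the 3 with the smallest p in each (red diamonds, with SE bars). Most points lie near 0, and Kcnip4 in endothelial cells lies at -2.14.

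Kcnip4, a Kv4 subunit, had the largest difference. It was at 402, 68.7 and 481 CPM in PHD1-/- endothelial cells and 1394, 567 and 2551 CPM in PHD1+/+ endothelial cells. The PHD1-/- levels rested on 146, 1 and 70 UMIs, those of PHD1+/+ on 658, 31 and 270. The groups did not overlap, as for 1 of 12 members with PHD1-/- the lower (2.56% of all genes) and 0 with PHD1-/- the higher (2.4%). Its log2 fold change was -2.14 (SE 0.69, edgeR adjusted p = 0.99983), and with the replicate block it was -2.26 (edgeR adjusted p = 0.0165). With members kept among the genes used for clustering, where the class held 1477 nuclei and not 502, it was -0.33. Of those 1477 nuclei, 1050 came from PHD1+/+ replicate 1, against 241 in the main class. The astrocyte marker Gfap was among the leading genes of that cluster, so -0.33 and -2.14 come from unlike sets of nuclei. The 10 neuron markers summed to 3072, 481 and 1636 CPM in PHD1-/- endothelial cells and 4457, 1737 and 2088 CPM in PHD1+/+ endothelial cells. Kcnip4 averaged 5432 CPM in neurons, and in endothelial cells it exceeded the neuron marker share in 1 of 6 libraries. Kcnq3 and Kcnc2 followed at -0.64 (SE 0.52) and -0.73 (SE 0.59), with overlapping groups.

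In glia the differences without overlap were few. In oligodendrocytes Kcnh1 (an EAG-type channel) was at 1.51, 1.904 and 2.28 CPM in PHD1-/- and 5.69, 3.69 and 5.696 CPM in PHD1+/+ (log2 fold change -1.33, SE 0.38). The PHD1-/- levels were counts of 3, 12 and 9 UMIs, those of PHD1+/+ of 15, 20 and 18. Kcnh1 had 92.4 CPM in the median of 36 neuron clusters. Neuron markers in oligodendrocytes averaged 10.2% of their neuron level, and their part in this difference was not tested. Kcnh1 was 1 of 4 members of 51 without overlap and with PHD1-/- the lower, beside Kcnk9, Kcnab2 and Kcnj13 (3.11% of all genes), while 0 were higher (2.31%). Kcnk9 was at -0.65 (SE 0.31). In microglia 1 of 21 members was without overlap and lower (1.87% of all genes), while 0 were higher (2.28%). Kcna2 and Kcnh7 overlapped there, at -0.62 (SE 0.35) and -0.70 (SE 0.69). In astrocytes Kcnc1 was at 18.7, 20.4 and 31.2 CPM in PHD1-/- and 43.8, 34.2 and 35.7 CPM in PHD1+/+ (log2 fold change -0.60, SE 0.36), the 1 member of 26 without overlap and lower (2.46% of all genes), while 0 were higher (2.53%). Kcnb2 and Kcnc4 were at -0.88 (SE 0.42) and -0.53 (SE 0.34). In astrocytes too all 10 neuron markers had the lower mean in PHD1-/-. In precursors Kcnk10, Kcnip1 and Kcnt1 were at 0.42 (SE 0.31), -0.31 (SE 0.25) and -0.72 (SE 0.62), and 0 of 36 members were without overlap (lower 2.28% and higher 3.61% of all genes).

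In inhibitory neurons Kcnj10, highest in astrocytes and next in oligodendrocytes, was at 3.06, 2.15 and 3.43 CPM in PHD1-/- and 10.9, 6.58 and 4.03 CPM in PHD1+/+ (log2 fold change -1.24, SE 0.42). It was 1 of 3 members of 72 without overlap and lower, beside Kcnmb4 and Kcnk4 (2.37% of all genes). In the same neurons the 10 astrocyte markers summed to 129.7, 78.0 and 98.0 CPM in PHD1-/- and 193, 120.2 and 96.2 CPM in PHD1+/+, and all 10 had the lower mean in PHD1-/-. The 10 oligodendrocyte markers summed to 656, 333 and 229 CPM in PHD1-/- and 978, 328 and 316 CPM in PHD1+/+, and all 10 had the lower mean in PHD1-/-. The groups overlapped for each sum, and the part of these markers in the result was not tested. Kcng3, a silent subunit, was at 5.62, 2.41 and 3.202 CPM in PHD1-/- and 0.909, 1.19 and 2.14 CPM in PHD1+/+ (log2 fold change 1.15, SE 0.46), the 1 member without overlap and higher (2.17% of all genes). The Kcng3 levels rested on 11, 27 and 28 UMIs in PHD1-/- and on 2, 11 and 17 UMIs in PHD1+/+. The highest and the lowest of these levels were both in replicate 1. Kcns2 was at -0.72 (SE 0.28), with overlap. In excitatory neurons Kcna5 (Kv1.5) was at 1.57, 1.64 and 1.75 CPM in PHD1-/- and 3.02, 3.66 and 2.06 CPM in PHD1+/+ (log2 fold change -0.79, SE 0.33), 1 of 5 members of 70 without overlap and lower, beside Kcnj9, Kcnj11, Kcnn1 and Kcnmb4 (2.32% of all genes), while 0 were higher (2.14%). Kcnj10 and Kcna6, highest in glia, followed at -0.68 (SE 0.37) and -0.24 (SE 0.16). In the same neurons the 10 oligodendrocyte markers summed to 823, 381 and 248 CPM in PHD1-/- and 1203, 345 and 344 CPM in PHD1+/+, and 10 of 10 had the lower mean in PHD1-/-. The 10 astrocyte markers summed to 166, 103 and 116 CPM in PHD1-/- and 252, 129 and 114 CPM in PHD1+/+, and 8 of 10 had the lower mean in PHD1-/-. Both sums overlapped between the groups, and their part in the results was not tested.

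In all nuclei Kcnab2, a Kv1 auxiliary subunit, was at 31.9, 35.1 and 31.4 CPM in PHD1-/- and 45.1, 41.6 and 38.8 CPM in PHD1+/+ (log2 fold change -0.35, SE 0.15). It was 1 of 4 members of 82 without overlap and lower, beside Kcnc1, Kcnn1 and Kcnmb1 (2.02% of all genes), while 1, Kcnh8, was higher (1.98%). Kcnmb1 and Kcnj14 followed at -0.53 (SE 0.26) and -0.53 (SE 0.32). In a sum over all nuclei, fewer cells of a type and less RNA per cell cannot be told apart.

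Genes that work with the channels were not called either. Of 35 partner genes in 6 lists (cofactors of voltage-gated channels, gamma subunits of the large-conductance channel, sulfonylurea receptors, HCN channels, sodium-potassium pump subunits and cation-chloride cotransporters), 33 were tested in all nuclei, 12 had a positive log2 fold change and 0 were called. All 6 genes of the sodium-potassium pump, which builds the gradient that the channels use, had negative log2 fold changes in all nuclei, with a median of -0.13 against -0.01 over all genes. The partner gene with the smallest p in oligodendrocytes was Slc12a5, a chloride extruder, at -0.44 (SE 0.20), and in endothelial cells Dlg2, a scaffold protein, at -0.85 (SE 0.52). Of the 10 neuron markers, 10 had the lower mean in PHD1-/- oligodendrocytes and 9 in PHD1-/- endothelial cells. Their part in these values was not tested.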

How the data were processed

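Nuclei of 6 libraries were sequenced singly. The deposited matrices give raw counts of UMIs for each gene in each barcode, and their headers name Cell Ranger as the source. Per the submitters' processing notes the tools were Cell Ranger 5.0.2 and Scanpy 1.8.1, with the build mm10. The sources used here do not say if intronic reads were included. Barcodes with at least 500 UMIs, 300 genes and under 5% mitochondrial UMIs were kept, and doublets were marked with Scrublet in Scanpy 1.11.5 and removed. Nuclei were clustered (2000 variable genes without members, 30 principal components, 15 neighbours, Leiden resolution 1.0), neurons again at 2.0, with no integration. Clusters were named from marker lists, and the naming thresholds were set after the clusters were seen.

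For each class the UMIs of a library were added up, and these sums were compared by edgeR 4.0.16 in R 4.3.3 (TMM, filterByExpr, robust quasi-likelihood fit), with p adjusted over all genes tested, threshold 0.05. DESeq2 1.42.0 was an alternative. The test was checked on simulated data. The p-values set the difference between group means against the spread between libraries. Members and lists were chosen with earlier results of these data known. For each ranked class up to 5 genes were named by ratio to the next class, and for each genotype comparison the 3 with the smallest p. Some genes and sequences that this rule takes are not reported here. CPM are not corrected for length and are compared within a gene only. Positions and sequences are from GENCODE M21 (GRCm38).

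Labels do not tie the replicate numbers to littermates. Deviations from the group means of same-numbered libraries correlated at 0.629 to 0.871 in all nuclei and above 0.1 in every pair of 7 comparisons, but not in endothelial cells (0.411, 0.0919 and 0.00309). Replicate 1 differs from the others in both groups, and replicate 3 of PHD1-/- also correlated at 0.517 with replicate 2 of PHD1+/+, and replicate 2 of PHD1-/- at 0.573 with replicate 3 of PHD1+/+.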

Additional observations from a re-analysis of the deposited data

How the results depend on the processing

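For the 8 genotype comparisons the count of members called stayed at 0 under the other size factors, DESeq2, no filter on low counts, nuclei with at least 1000 UMIs, equal numbers of nuclei, replicates 2 and 3 alone, members kept in the clustering (not run for all nuclei, which need no clusters) and each library left out in turn (0 to 0). The replicate block gave 1 in endothelial cells, Kcnip4 (-2.26, adjusted p = 0.0165); its pairs there did not pass the pairing check, and the cause was not tested. Over its 13 alternatives Kcnip4 ranged from -2.52 to -0.33, the last with members kept among the genes used for clustering. There the endothelial class held 1477 nuclei and not 502, with 1050 of them from PHD1+/+ replicate 1, and the cause was not tested. With the block 71 of 15550 genes were called in inhibitory neurons and 29 of 15847 in excitatory neurons, against 0 in both without it, with no member among them, and the smallest adjusted p of a member there was 0.0966. All 24 fold changes taken by the rule of the 3 smallest p kept their sign under every alternative. They were picked for small p in the same libraries that the alternatives reuse, so the kept signs are a description and no support. The members highest in a neuron class numbered 18 to 21, and those highest in another class 13 to 19, when a library was left out. The difference in summed level in microglia was -90.8 CPM with nuclei of at least 1000 UMIs, against -229 CPM in all microglia, and the cause was not tested. Leaving Kcnip4 out of the sums, a choice made after seeing the data, brought ependymal cells to 4342 CPM and cerebrospinal-fluid-contacting neurons to 9864 CPM. The low depth of replicate 1 and the 9 to 26 nuclei per library of the smallest neuron classes limit what could be seen.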
